A study of Mus musculus with 6 samples.

Results

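The dystrophin-glycoprotein complex genes described here are Dmd, Utrn, Dag1, Sgca, Sgcb, Sgcd, Sspn, Sntb1 and Dtna, 9 genes of the 20416 that the array's annotation named. They were found by symbol: every probe set annotated with exactly 1 of these symbols was taken, which gave 232 of 212097 probe sets, and no probe set with several symbols held one of them. RNA came from C2C12 cells, a mouse myoblast line, grown in 10% fetal bovine serum, differentiated in 2% horse serum and used as myotubes between days 4 and 7. The 3 insulin cultures were kept in 100 nM insulin for 48 h, a treatment meant per the labels to make the cells insulin resistant, and the 3 control cultures were left untreated. Both groups are the same line with no genetic change named, and within a group the labels number the arrays as biological replicates 1 to 3, without saying how the cultures were separated, so the p-values measure the spread between these arrays.

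The complex joins the cytoskeleton of a muscle fibre to the laminin around it. Dystrophin binds actin inside the cell and β-dystroglycan at the membrane, α-dystroglycan binds laminin outside through a sugar chain, and the sarcoglycans and sarcospan form a membrane subcomplex beside dystroglycan. Syntrophins and dystrobrevins bind the C-terminal end of dystrophin and carry signalling proteins, and utrophin, the paralog of dystrophin, can form a similar complex. Loss of dystrophin causes Duchenne muscular dystrophy, and loss of single sarcoglycans causes limb-girdle dystrophies.

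Promoter sequence was held for 7 of the 9 genes in a RefSeq table of build GRCm38.p6. The 250 bases before the listed start are shown for Dmd, Sgca and Sspn, members whose RNA was lower after insulin by limma's test (values below). They show which letters of muscle transcription factor motifs lie near starts of genes that moved the same way. Capitals mark matches on either strand to the E-box CANNTG, which myogenic helix-loop-helix factors bind, and to the CArG box that serum response factor binds. Sspn has 2 listed starts and the downstream one is shown. Of the 2 listed starts of Dmd, the upstream one is shown.
Dmd, chrX:82948620-82948869, plus strand: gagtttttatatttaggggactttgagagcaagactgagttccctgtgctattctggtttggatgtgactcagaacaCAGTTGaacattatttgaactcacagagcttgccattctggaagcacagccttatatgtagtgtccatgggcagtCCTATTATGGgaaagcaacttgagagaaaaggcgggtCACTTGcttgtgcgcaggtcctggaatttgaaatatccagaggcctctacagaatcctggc
Sgca, chr11:94976328-94976577, minus strand: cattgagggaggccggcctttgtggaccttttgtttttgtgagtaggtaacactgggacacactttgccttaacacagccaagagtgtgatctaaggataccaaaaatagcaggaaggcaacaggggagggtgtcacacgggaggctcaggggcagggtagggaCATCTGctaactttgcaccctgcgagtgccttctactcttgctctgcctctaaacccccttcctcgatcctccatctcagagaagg
Sspn, chr6:145933872-145934121, plus strand: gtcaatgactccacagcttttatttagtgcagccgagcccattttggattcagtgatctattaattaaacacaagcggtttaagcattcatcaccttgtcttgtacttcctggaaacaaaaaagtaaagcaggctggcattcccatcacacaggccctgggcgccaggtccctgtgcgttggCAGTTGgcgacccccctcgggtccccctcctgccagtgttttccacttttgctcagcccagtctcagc
The Dmd window held 2 E-boxes, 173 to 168 and 61 to 56 bases before the start, and the single CArG box found in any window of the members, at 98 to 89. The Sgca window held 1 E-box at 86 to 81 and the shown Sspn window 1 at 68 to 63. The windows of the other listed starts of Dmd and Sspn held no E-box. Over all 10 windows of the 7 genes, 7 held an E-box, with the same E-box counted in both windows of Dag1, which overlap, and so did 66.2% of the 32817 promoter windows of this length in the table. A CArG box was in 1.5% of all windows. The MEF2 site, searched as CTA and TAG with 4 bases of any kind between them, was in none of the 10 windows and in 3.2% of all, and the GC box GGGCGG was in 5 of 10 and in 32.7% of all; the same 3 GC boxes lie in both Dag1 windows. These matches describe letters only, and binding was not measured.

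RNA of all 9 genes was lower on average after insulin, and for Sspn, Sgca, Sntb1 and Dmd the fall passed limma's test. The falls were small, from 1.21-fold for Dmd to 1.38-fold for Sspn. A gene's level on an array was the median log2 value of its probe sets, and all 9 genes passed the filter on dim genes, which lay at 7.05 on the log2 scale. The count of 4 falls and no rises among 9 genes stands beside 6.35% of 14291 tested genes that fell, 9.56% that rose and 15.9% that changed either way, at an adjusted p under 0.05 by limma with Benjamini-Hochberg adjustment. The median change of the 9 genes was -0.28 on the log2 scale, against -0.0028 over all tested genes, of which 50.6% were lower. In 6 of the 9 genes the 3 insulin arrays all lay under the lowest control, a pattern seen in 15.7% of tested genes (35.7% in either direction). In RNA from whole cultures, fewer cells of a type and less RNA per cell cannot be told apart. The count was 2 without insulin 2, where calls over all tested genes fell from 2274 to 1046 (7.32%), and 3 to 5 when any other array was left out (1114 to 2446 genes). With array quality weights it was 7, beside 5007 genes (35%).

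**Figure D1:**
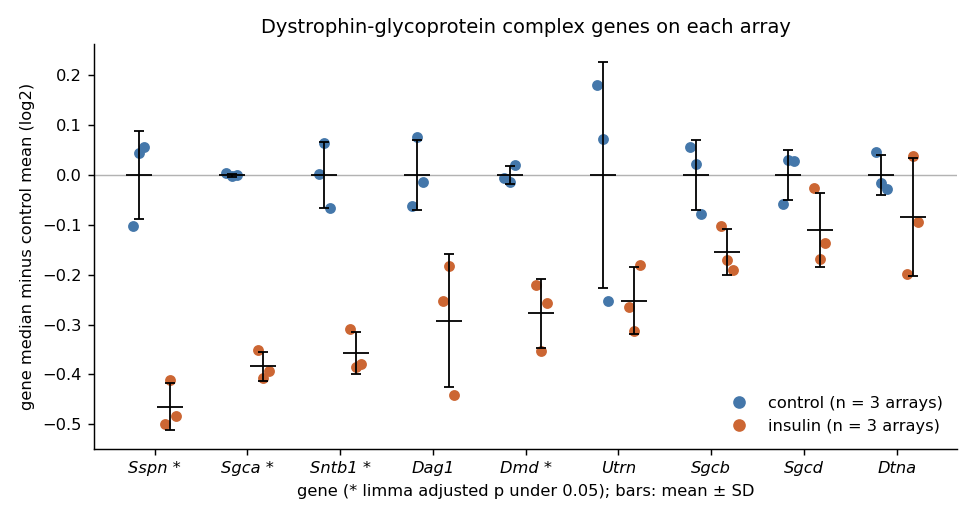
Level of each gene on each array (median of its probe sets, log2) minus the mean of its 3 controls; points are arrays, bars are mean ± SD of 3 arrays, and stars mark limma adjusted p under 0.05. Insulin arrays lie below all controls for Sspn, Sgca, Sntb1, Dag1, Dmd and Sgcb, while 1 low control of Utrn lies among its insulin arrays and Sgcd and Dtna overlap.

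Sspn encodes sarcospan, a small membrane protein with 4 transmembrane spans that binds the sarcoglycans. Its level was 11.02, 11.17 and 11.18 on controls 1 to 3 and 10.62, 10.71 and 10.64 on insulin 1 to 3, all on the log2 scale. The groups did not overlap, and the lowest control lay further above the highest insulin array than the insulin arrays lay apart. The fall of 0.47 ± 0.07 (limma SE, n = 3 each) was a 1.38-fold lower level (limma adjusted p = 0.00506). It passed in all 16 alternatives run, with an adjusted p between 0.000234 and 0.0282.

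Sgca encodes α-sarcoglycan, the sarcoglycan most restricted to striated muscle. It read 11.17 on each of the 3 controls and 10.82, 10.76 and 10.78 on the insulin arrays. These control medians differed far less among themselves (SD 0.0031) than from any insulin array. Single probe sets of the gene spread more, with control SDs from 0.041 to 0.17. The fall of 0.38 ± 0.06 (SE), 1.31-fold, passed (limma adjusted p = 0.00525), and all 12 of its probe sets were lower after insulin. With the brightest probe set alone the change was -0.21 and did not pass (adjusted p = 0.0826).

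The other sarcoglycans moved less and did not pass. Sgcb, encoding β-sarcoglycan, read 12.93, 12.89 and 12.79 on the controls and 12.77, 12.70 and 12.68 on the insulin arrays. Its groups were separate by a narrow margin, and the change of -0.15 ± 0.07 (SE) had a limma adjusted p of 0.170. It passed in 3 of 16 alternatives: with the mean of its probe sets (-0.17, adjusted p = 0.0432), with a trended robust prior (0.0495) and with array weights (0.0256). Sgcd, encoding δ-sarcoglycan, read 9.37, 9.45 and 9.45 on the controls and 9.40, 9.26 and 9.29 on the insulin arrays, so that insulin 1 lay among the controls. Its change of -0.11 ± 0.07 (SE) did not pass (limma adjusted p = 0.333). Whether Sgca changed more than Sgcb or Sgcd was not tested.

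Dag1 encodes the precursor that is cleaved into α- and β-dystroglycan, the laminin receptor of the complex. It read 11.21, 11.35 and 11.26 on controls and 11.02, 11.09 and 10.83 on insulin arrays, without overlap and with insulin 3 lowest. The change of -0.29 ± 0.08 (SE), 1.22-fold, just missed the threshold (limma adjusted p = 0.0520). In 7 of 16 alternatives it passed: after centring the arrays (-0.31, adjusted p = 0.0447), with the 50th percentile filter (0.0322), a trended robust prior (0.0273), array weights (0.00451), and the mean (0.0107), brightest (0.0479) or brighter probe sets (0.0421). All 6 of its probe sets were lower after insulin, by 0.15 to 0.48 in size.

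Dmd encodes dystrophin, and its gene also gives short products from internal promoters. The gene median read 7.66, 7.66 and 7.69 on controls and 7.45, 7.32 and 7.41 on insulin arrays. The groups did not overlap, though the levels lay close above the filter level of 7.05. The change was -0.28 ± 0.06 (SE), 1.21-fold, and passed (limma adjusted p = 0.0250). The call was the least steady of the 4: it was lost without control 2 (adjusted p = 0.0749), insulin 1 (0.0539), insulin 2 (0.101) or insulin 3 (0.0747), with the mean of probe sets (0.0516), the brightest probe set (-0.42, 0.0880) or a trended robust prior (0.0600). The 50th percentile filter and the use of brighter probe sets left Dmd under the filter and untested. Over its 44 brighter probe sets the gene median changed by -0.21.

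Utrn encodes utrophin. It read 11.15, 11.04 and 10.71 on the controls and 10.70, 10.66 and 10.79 on the insulin arrays. Control 3 stood apart from the other controls and lay within the range of the insulin arrays. The change of -0.25 ± 0.11 (SE) did not pass (limma adjusted p = 0.176). Without control 3 it was -0.38 and passed (adjusted p = 0.0189), and with array weights it was -0.31 (0.0110). Controls also spread over all tested genes: on the second principal component control 3 lay lowest, at a score of -15.0, and control 1 highest, at 13.3, with the insulin arrays between 1.15 and 2.84.

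The balance of the paralogs was set out as Utrn minus Dmd within each array, a value that follows unequal change only and not the ratio of their RNAs. It was 3.48, 3.38 and 3.02 on controls and 3.25, 3.34 and 3.37 on insulin arrays. The insulin arrays lay inside the spread of the controls. The mean moved from 3.30 ± 0.24 to 3.32 ± 0.06 (SD, n = 3), a difference of 0.025. An exact permutation test over arrays, two-sided, gave p = 1, where 0.1 is the smallest that 3 against 3 arrays allow. The sign turned to -0.11 without control 3, to -0.00074 without insulin 3 and to -0.042 with brighter probe sets, so no direction can be given.

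Sntb1 encodes β1-syntrophin, an adaptor that binds dystrophin and whose PDZ domain binds signalling proteins. It read 11.04, 11.11 and 10.97 on controls and 10.73, 10.66 and 10.66 on insulin arrays, with a clear gap between the groups. The fall was 0.36 ± 0.07 (SE), 1.28-fold (limma adjusted p = 0.0104), and without insulin 2 it was 0.34 in size and narrowly missed the threshold (adjusted p = 0.0510). All 8 probe sets were lower after insulin without overlap. They read RNA of the same gene, and 28.8% of all tested probe sets did not overlap in either direction.

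Dtna encodes α-dystrobrevin, a dystrophin relative that binds dystrophin and syntrophins. Its gene median read 9.29, 9.22 and 9.21 on controls and 9.04, 9.28 and 9.15 on insulin arrays, with overlap through insulin 2. The change of -0.08 ± 0.08 (SE) did not pass (limma adjusted p = 0.520). Taken over its 28 brighter probe sets alone, the median read 9.90, 10.24 and 10.25 on controls and 9.87, 9.82 and 9.87 on insulin arrays. That change was -0.28, over 1.5 times the size of the change over all 31 probe sets, and did not pass either (adjusted p = 0.0905). The mean of all probe sets gave -0.18, also without a call (0.0557).

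Each gene was also read probe set by probe set; those of 1 gene read RNA of the same gene and are not replicates. Of the 232 probe sets, 192 passed the filter on dim probe sets (7.36 on the log2 scale) and 40 did not, 36 of them in Dmd. Among the 192, 175 were lower after insulin and 17 higher, where 50.9% of all 169103 tested probe sets were lower. Their median change was -0.23, against -0.0051 over all tested probe sets. In 73 of the 192 (38.0%) the groups did not overlap, each time with insulin lower, and 28.8% of all tested probe sets did not overlap in either direction.

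Only 5 of the 192 passed limma's test over all probe sets at an adjusted p of 0.05, all lower after insulin, or 2.60% against 4.87% of all tested probe sets called either way, 1.44% called lower and 3.43% called higher. At an unadjusted p under 0.05 there were 62 (32.3%), all lower, where 21.8% of all tested probe sets had such a p and 8.96% had it and were lower. The 5 were 2 of the 4 probe sets of Sspn and 1 each of Sntb1, Sgcd and Dtna. The count moved with the arrays: it was 2 without control 1, 1 without control 2, 5 without control 3 and 0 without insulin 1, 2 or 3. Calls over all probe sets were not counted with an array left out.

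The Sspn probe set with the smallest p, 10542742, read 11.19, 11.29 and 11.21 on controls and 10.77, 10.71 and 10.71 on insulin arrays (change -0.50, limma adjusted p = 0.0221). The other, 10542744, changed by -0.42 (0.0449) and is the brightest of the gene. In Sntb1, probe set 10428700 read 11.02, 11.07 and 10.96 on controls and 10.61, 10.58 and 10.57 on insulin arrays (-0.43, 0.0299).

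Sgcd and Dtna each had a called probe set though their gene medians did not pass. Probe set 10385467 of Sgcd read 8.20, 8.43 and 8.54 on controls and 7.81, 7.86 and 7.91 on insulin arrays (-0.53, limma adjusted p = 0.0451), while the other 8 probe sets of the gene changed by -0.22 to 0.11. Probe set 10454260 of Dtna read 11.54, 11.59 and 11.71 on controls and 11.19, 11.25 and 11.21 on insulin arrays (-0.40, 0.0446). Both separated the groups fully.

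**Figure D2:**
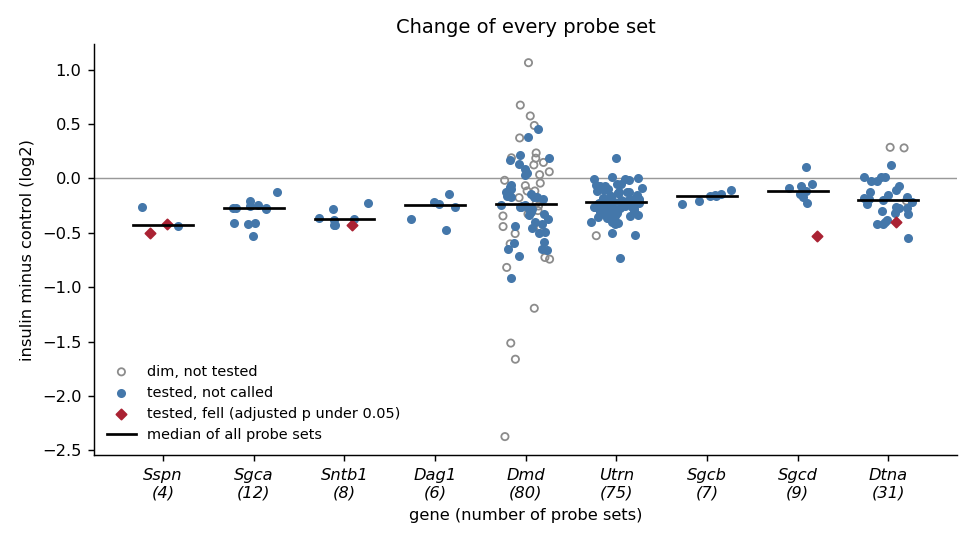
Change of each probe set (insulin mean minus control mean, log2) for the 9 genes, with the number of probe sets in brackets; open points lay under the filter, diamonds passed limma at an adjusted p under 0.05 and bars are medians. Nearly all points of Sspn, Sgca, Sntb1, Dag1 and Sgcb lie in a narrow band below 0, while the open points of Dmd run from -2.37 to 1.07.

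Dmd and Utrn hold 155 of the 232 probe sets and differ in how far those spread. The 44 tested probe sets of Dmd changed by -0.92 to 0.45 with a median of -0.25, and 35 were lower. The groups did not overlap in 10 of the 44, all lower, beside 28.8% of all tested probe sets in either direction. The share of all tested probe sets without overlap and lower was not counted, so the 10 cannot be placed against it. Its brightest probe set, 10600618, read 11.05, 10.66 and 10.60 on controls and 10.48, 10.32 and 10.26 on insulin arrays, a change of -0.42 that did not pass (limma adjusted p = 0.145).

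Among tested Dmd probe sets the largest decrease was in 10600609, with 8.49, 8.04 and 8.45 on controls and 7.85, 7.92 and 6.46 on insulin arrays. Insulin 3 was the lowest by a wide margin, and the change did not pass (-0.92, limma adjusted p = 0.234). The largest increase was in 10600682, at 8.27, 7.66 and 6.83 on controls and 7.76, 8.19 and 8.17 on insulin arrays (0.45, 0.505), where the controls spread by more than the change. The 36 dim ones ran from -2.37 to 1.07, and the lowest of these, 10600606, read 7.31, 3.58 and 8.13 on the controls alone. Controls thus differed by more than 4 on the log2 scale in this probe set, though many dim ones spread less. No change below the filter was tested, and none is read here. The gene median of Dmd given above is taken over all 80 probe sets, with these 36 among them.

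The 75 probe sets of Utrn were brighter, with 74 tested, and 71 of those were lower after insulin. They changed by -0.73 to 0.19 with a median of -0.21. The brightest, 10367903, read 13.30, 13.36 and 13.10 on controls and 13.01, 12.92 and 12.98 on insulin arrays, separate but not called (-0.28, limma adjusted p = 0.150). The groups did not overlap in 18 of the 74, all lower, beside 28.8% of all tested probe sets in either direction. For these 18 too, the share that was lower without overlap was not counted. None of the 74 passed, with 17 at an unadjusted p under 0.05, all lower. Of all tested probe sets 21.8% reached such a p, and 8.96% reached it and were lower.

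**Figure D3:**
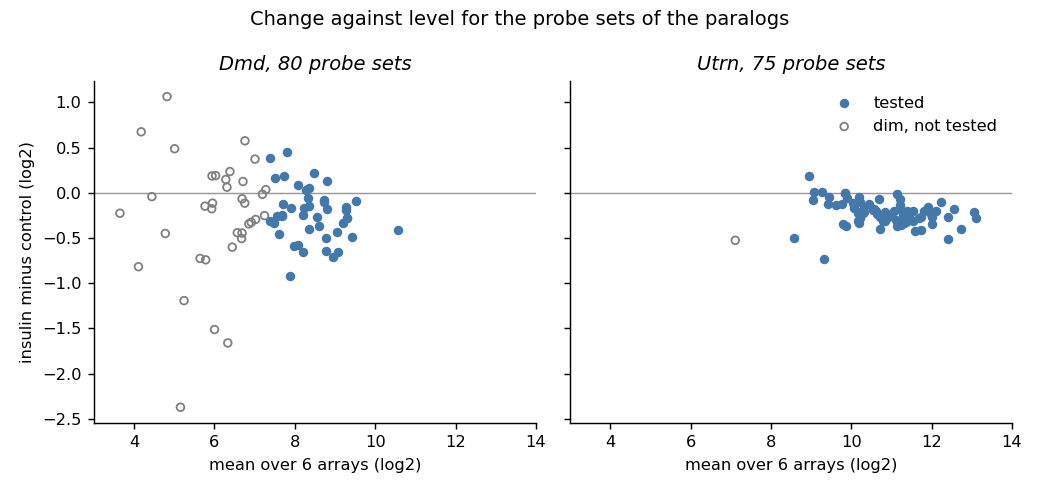
Change (insulin minus control, log2) against the mean level over 6 arrays (log2) for each probe set of Dmd and Utrn; open points were under the filter. Points of Utrn lie in a band around -0.21, and those of Dmd widen as the level drops.

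Whether probe sets of one gene changed by different amounts was asked with limma's diffSplice. It called none of the 9 genes (smallest Benjamini-Hochberg adjusted p 0.384, for Sgcd), and 3.34% of 15137 genes. At an unadjusted p under 0.05 it counted 1 gene, Sgcd. A second limma test, added after seeing the data, that gave each probe set its own variance also called none (smallest adjusted p 0.577), as for all but 9 of 15127 genes (0.0595% called), and counted Sgcd alone at an unadjusted p under 0.05. With array weights diffSplice called 3, Dmd (adjusted p = 6.19e-05), Dtna (0.00156) and Sgcd (0.00617). How many of all genes diffSplice called with these weights was not counted, so the 3 are not read as particular to the members. By limma's gene test, array weights raised the share of all tested genes called from 15.9% to 35%. The files used here do not pair probe sets with exons, so no product of Dmd, full length or short, can be assigned.

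The wider set of subunits, ligands and direct partners went both ways. Of 35 tested genes 8 fell, 3 rose and 24 did not pass, a share of 31.4% called beside 15.9% of all tested genes, with a median change of -0.12. The largest falls were in Cav3 (-0.55 ± 0.07, SE, limma adjusted p = 0.00252), the muscle caveolin that binds β-dystroglycan, Lamb2 (-0.48), the laminin β2 chain, and Drp2 (-0.37), dystrophin-related protein 2. Cav3 read 10.80, 10.95 and 10.94 on controls and 10.35, 10.38 and 10.29 on insulin arrays, a gap wider than the spread of either group.

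The rises in this list were in Krt19 (0.81 ± 0.07, SE), a keratin that binds the actin-binding end of dystrophin at costameres, Dtnb (0.48), which encodes β-dystrobrevin, and Ank2 (0.38), an ankyrin that helps to place dystrophin at the membrane. Dtnb read 7.81, 7.96 and 8.07 on controls and 8.47, 8.43 and 8.36 on insulin arrays (limma adjusted p = 0.00825), without overlap. Its paralog Dtna gave no call in either direction. Whether the dystrobrevins differed in their response was not tested. Lama2, the laminin α2 chain of muscle, changed by -0.27 (limma adjusted p = 0.0543) and Nos1, the neuronal nitric oxide synthase that syntrophin anchors, by -0.07 (0.585), and neither passed. The 11 calls became 6 (2 rises and 4 falls) without control 2, insulin 1 or insulin 2. Of all tested genes 8.66%, 8.87% and 7.32% were called without these arrays in turn. Drp2 lost its call when any 1 of these 3 arrays was left out and Ank2 when any 1 array other than control 1 was, and Lama2 passed without control 3 (-0.34, limma adjusted p = 0.0197). With the brightest probe set the signs of Dtnb (-0.24) and Ank2 (-0.19) turned, without a call.

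Enzymes that build the laminin-binding sugar of α-dystroglycan were called about as often as genes at large. Of 17 tested 3 rose and 14 did not pass, or 17.6% called beside 15.9% of all tested genes, of which 9.56% rose, with a list median of 0.089. The rises were in Gmppb (0.51), which makes GDP-mannose, and in Dpm2 (0.35) and Srd5a3 (0.34), which serve the dolichol-phosphate-mannose supply. Gmppb read 8.56, 8.82 and 8.99 on controls and 9.22, 9.36 and 9.33 on insulin arrays, higher on all 3 (limma adjusted p = 0.0178). This count of 3 was 1 without control 2 (8.66% of all tested genes called) and 0 without insulin 2 (7.32%) or insulin 3 (7.8%). With a gene's brightest probe set in place of the median it was 1, a fall, where 10.7% of all tested genes were called and 4.3% fell. Gmppb lost its call without control 2, insulin 2 or insulin 3, Dpm2 without insulin 2 or insulin 3, and Srd5a3 when any 1 array other than control 3 was left out.

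The integrin-based costamere, a second link from the cytoskeleton to laminin, gave 3 falls and 1 rise among 26 tested genes (15.4% called, beside 15.9% of all tested genes), with a median of -0.092. Itgb5, the integrin β5 subunit, changed by -0.71 ± 0.09 (SE, limma adjusted p = 0.00261), Itgb1bp2 (melusin, a muscle protein that binds integrin β1) by -0.52 and the basement membrane gene Nid2 by -0.51. Nid1, also of the basement membrane, gave the 1 rise (0.27), which did not pass without control 2, insulin 1, insulin 2 or insulin 3, with the replicate number as a block (adjusted p = 0.0520) or with the brightest probe set (0.310). Itga7, the muscle laminin receptor subunit, read 13.12 ± 0.07 on controls and 13.06 ± 0.04 on insulin arrays (SD, n = 3), and its change of -0.06 did not pass (limma adjusted p = 0.635).

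**Figure D4:**
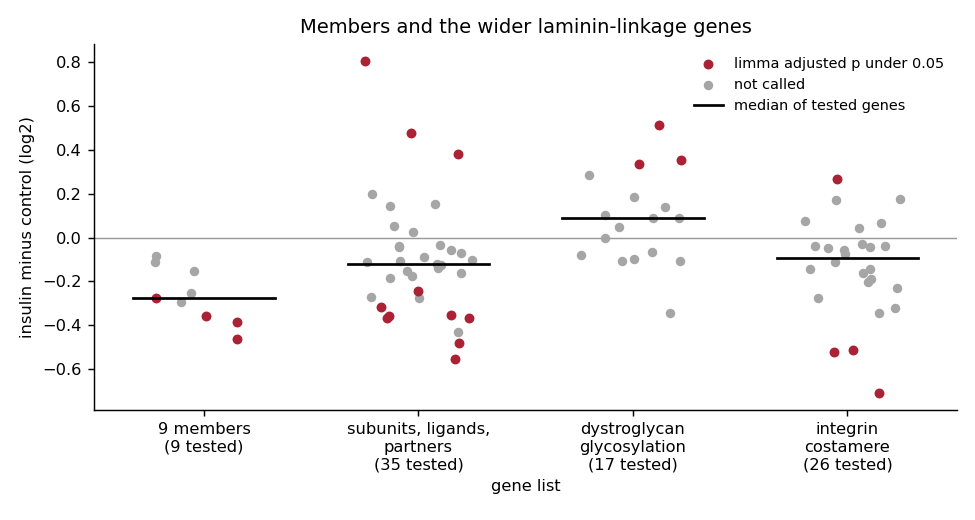
Change (insulin minus control, log2) of each tested gene in the 9-gene set and the 3 wider lists; red points passed limma at an adjusted p under 0.05 and bars are list medians. The 9 members all lie below 0, the glycosylation enzymes have a median of 0.089, and the other lists hold rises and falls.

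Many markers of fused muscle were lower too. Of 24 tested myotube markers 11 fell (45.8%) and none rose, with a median of -0.25, where 6.35% of all tested genes fell. Among the falls were Myog (-0.27) and Ckm (-0.30), while Myh3 (-0.21, limma adjusted p = 0.194) did not pass. Cav3, also among the falls, and Des, which was not called, are in the list of partners above too. Myog and Ckm lost their calls without control 2, insulin 1, insulin 2 or insulin 3. The summed linear level of the 24 markers ran from 212844 to 220783 on controls and from 184210 to 188696 on insulin arrays. Of 18 tested markers of myoblasts and cycling cells 10 rose and 3 fell, so the list as a whole did not move one way. That was 72.2% called, beside 15.9% of all tested genes, of which 9.56% rose and 6.35% fell. The tested cell cycle genes of the list were all higher after insulin, and of them only Pcna (0.15, limma adjusted p = 0.135) did not pass. The other markers of the list went both ways. This division was made after the values were seen. Mki67 was at 0.92 and Myf5 at 0.29, the latter without a call when insulin 1, 2 or 3 was left out, and Pax7 (-0.03, limma adjusted p = 0.915) did not pass. The rise largest in size was in Ccnd1 (1.27), cyclin D1, and the falls were in Cxcr4 (-1.26), a chemokine receptor, Id3 (-1.13), an inhibitor of helix-loop-helix factors, and Heyl (-0.44), a Notch target, all 4 picked after their values were seen. The sum over this list ran from 35576 to 37209 on controls and from 42282 to 44177 on insulin arrays. The part of these shifts in the falls of the 9 genes was not tested.

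Markers of cell types that the line should lack were mostly dim or without a call, though most of the fibroblast list was not dim. For endothelium and blood 5 of 7 lay under the filter and neither of the others passed, and of 4 tested Schwann cell and neuron markers none passed. Of 10 tested fibroblast markers 3 fell and none rose (30% called, beside 6.35% of all tested genes that fell). These were Postn (-1.24), Dcn (-0.57) and Pdgfrb (-0.40), the last without a call when insulin 1 or insulin 2 was left out. On controls the 3 averaged 9.54, 11.61 and 10.87 on the log2 scale, while 3 other fibroblast markers lay under the filter. Which cells this RNA came from was not tested. The summed level of the fibroblast list ran from 15748 to 17720 on controls and from 13722 to 14135 on insulin arrays. Of 5 tested adipocyte markers Pparg rose (0.65) and the others did not pass, and 3 more lay under the filter. That was 20% called, where 9.56% of all tested genes rose. These 4 genes too were picked after their values were seen.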

How the data were processed

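The values were deposited by the authors on a log2 scale, 1 for each probe set of each array, and came from RMA per the submitters' processing notes. They cover 6 arrays (3 insulin, 3 control) of RNA amplified from 25 ng. That the log base is 2 was judged from the values, which lay between 3.15 and 14.6. RMA equalizes arrays, so changes are relative to other transcripts. Array medians were 8.79 to 8.82. Scan batches, detection calls and the genome build are not given in the labels, and having only 3 arrays in a group limits precision.

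Symbols came from GEO's platform annotation. Genes and probe sets with a mean under the 30th percentile were left out. The insulin and control groups were compared with limma 3.58.1 in R 4.3.3 (lmFit, eBayes, two-sided, no covariates), and p-values were adjusted by Benjamini-Hochberg over all 14291 genes or 169103 probe sets. The tests were run on simulated data, where diffSplice made too many calls at unequal variances and the added test did not. The added test also found fewer of 200 planted changes of 1 on the log2 scale, 105 against 146 for diffSplice. Alternatives were a replicate block, other scalings, filters, priors, array weights and gene summaries, and leaving out each array. Members and lists were chosen with earlier results of these data known. Named genes were the 9 members, in each wider list the 3 largest called rises and falls without overlap, 4 fixed partners (Cav3, Lama2, Nos1, Itga7) and 6 markers. Other fixed partners were not analysed here. Probe sets named were the brightest and most changed of Dmd, the brightest of Utrn, and those called.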

Additional observations from a re-analysis of the deposited data

How the results depend on the processing

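Across 142 values of the 9 genes under 16 alternatives, all 142 kept their direction and 121 their side of the threshold, while 9 lost a call and 12 gained one. The number of the 9 genes called was 4 (2274 over all genes), 2 to 5 with 1 array left out (1046 to 2446) and 7 with array weights (5007). Member probe sets called numbered 5, with 0 to 5 when 1 array was left out. There were 8 after repeated quantile normalization (15.6% of all tested genes called), 9 after centring (16%) and 0 with no filter (8.21%). There were 19 with the 50th percentile filter (24.5%), 20 with a trended robust prior (18.9%) and 59 with array weights (35%). The shares in brackets are of genes and do not give a level for probe sets. Without these changes of setting 4.87% of tested probe sets and 15.9% of tested genes were called. Calls over all probe sets were not counted for these settings, so the counts are not read as particular to the members. Genes with unequal probe sets went from 0 to 3 with array weights, a setting in which the share over all genes was not counted. The list of subunits, ligands and partners had 11 calls (15.9% of all tested genes called) and 6 to 13 with 1 array left out (7.32% to 17.1%). It had 22 with array weights (35%) and 3 with the brightest probe set (10.7%). The glycosylation list had 3 calls (15.9% of all tested genes called), 0 to 4 with 1 array left out (7.32% to 17.1%) and 1 with the brightest probe set (10.7%). The integrin list had 4 calls (15.9% of all tested genes called) and 3 to 5 with 1 array left out (7.32% to 17.1%). It had 8 with array weights (35% of all tested genes called) or with the mean of probe sets (24%). Utrn minus Dmd was -0.042 with brighter probe sets and ran from -0.11 to 0.12 with 1 array left out, where it was -0.11 without control 3 and -0.00074 without insulin 3. Signs turned, without a call, for Ank2 (-0.19) and Dtnb (-0.24) with the brightest probe set, Nos1 (0.025) with array weights, and Pax7, from -0.18 to 0.050 with 1 array left out; these genes were read after seeing the data. The cause of these shifts was not tested. No pairing by the numbers of the titles was evident, and 3 arrays in a group cannot exclude one. Same-numbered arrays deviated from their group means with correlations of 0.025, 0.19 and -0.00036. The 0.19, of control 2 with insulin 2, was the highest of any pair, but not every array correlated best with its own number. With the replicate number as a block, 4 of the 9 genes and 0 of their probe sets were called, and 1970 genes in place of 2274. Signal over background could not be judged, which limits Dmd most.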
